A study of Homo sapiens with 10 samples.

Results

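Tumour cells carry surface proteins that hold back immune attack. The 9 genes described here encode such proteins: the checkpoint ligands CD274 (PD-L1), PDCD1LG2 (PD-L2), CD276 (B7-H3), PVR (CD155) and NECTIN2 (CD112), the phagocytosis inhibitor CD47, and the membrane regulators of complement CD46, CD55 and CD59. They were chosen as a named list, by a rule that uses no measured value but with earlier results of these data known, from the 61533 genes of the count tables, and all 9 were among the 16181 genes with enough counts to be tested. Their transcripts were measured by RNA-seq in T24, a human bladder cancer cell line that is sensitive to cisplatin, and in T24R2, a resistant line derived from T24 by repeated exposure to the drug. There were 5 libraries of each line, all taken on day 3 of growth in RPMI with 10% serum. The methods of the study keep T24R2 in cisplatin, while the sample labels give both lines the same drug-free medium, so the line and the drug cannot be told apart. T24R2 is a single derived line, and no source states that its 5 libraries came from separate cultures, so p-values measure the spread between these libraries, which may be technical.

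Checkpoint ligands bind receptors on T cells and natural killer cells. PD-L1 and PD-L2 engage PD-1, PVR and NECTIN2 engage the inhibitory receptor TIGIT and the activating receptor DNAM-1, NECTIN2 also engages the inhibitory receptor PVRIG, and B7-H3 is a B7 family member whose receptor is not settled. CD47 engages SIRPA on macrophages and inhibits phagocytosis. CD46 is a transmembrane cofactor for the cleavage of C3b and C4b, CD55 (decay-accelerating factor) dissociates C3 convertases, and CD59 blocks assembly of the membrane attack complex. CD55 and CD59 are held in the membrane by a glycosylphosphatidylinositol (GPI) anchor.

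Total counts per library ranged from 9257843 to 10840954, of which 2.35% to 2.97% fell on mitochondrial genes. Levels are given as CPM, counts relative to library size after scaling by the trimmed mean of M-values (TMM), with mean ± SD of the 5 libraries of each line. A gene was called when edgeR's quasi-likelihood test gave an adjusted p under 0.05 and the absolute log2 fold change, T24R2 against T24, was over 0.5. The lines differed widely: 4027 of 16181 tested genes (24.9%) were called higher in T24R2 and 4282 (26.5%) lower. In bulk RNA, fewer cells with a transcript and less of it per cell cannot be told apart. Of 18 urothelial and epithelial markers, 9 were tested and all 9 were called lower in T24R2, with log2 fold changes of -7.96 to -0.61. They included KRT7, the most abundant (2242 ± 70.2 to 1370.0 ± 64.6 CPM, a log2 fold change of -0.71), and ELF3, GATA3 and EPCAM (log2 fold changes of -7.96, -6.57 and -4.98, the last at least 15.1-fold lower), while KRT20 had no count in either line and UPK1B, UPK3A, KRT5, KRT14 and CDH1 had at most 6 counts in any library. The part of this marker loss in the results on the 9 genes was not tested. Summed over 12 immune cell markers, T24 libraries had 2.05 to 3.12 CPM and T24R2 libraries 1.08 to 3.17 CPM, with CD3D, CD2 and MS4A1 at 0 in every library.

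Of the 9 genes, 6 were lower in T24R2, 0 were higher and 3 were not called. By edgeR 0 were higher at an unadjusted p under 0.05 as well, and DESeq2 and limma-voom also called 6 lower and 0 higher. The 6 were CD55, CD59, CD274, CD47, NECTIN2 and CD276. Among all tested genes 26.5% were called lower and 24.9% higher, as given above. CD55, CD59, CD274 and CD47 fell to between 8.52% and 27.3% of their T24 level. NECTIN2 and CD276 stayed at about 69% of it (68.9% and 69.3%), and PVR at 77.2%. For 7 of the 9 genes every T24R2 library lay below every T24 library, a pattern seen in 31.3% of the tested genes, and for each of these 7 the exact two-sided permutation test of CPM gave p = 0.00794, the smallest that 5 libraries against 5 can give.

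**Figure D1:**
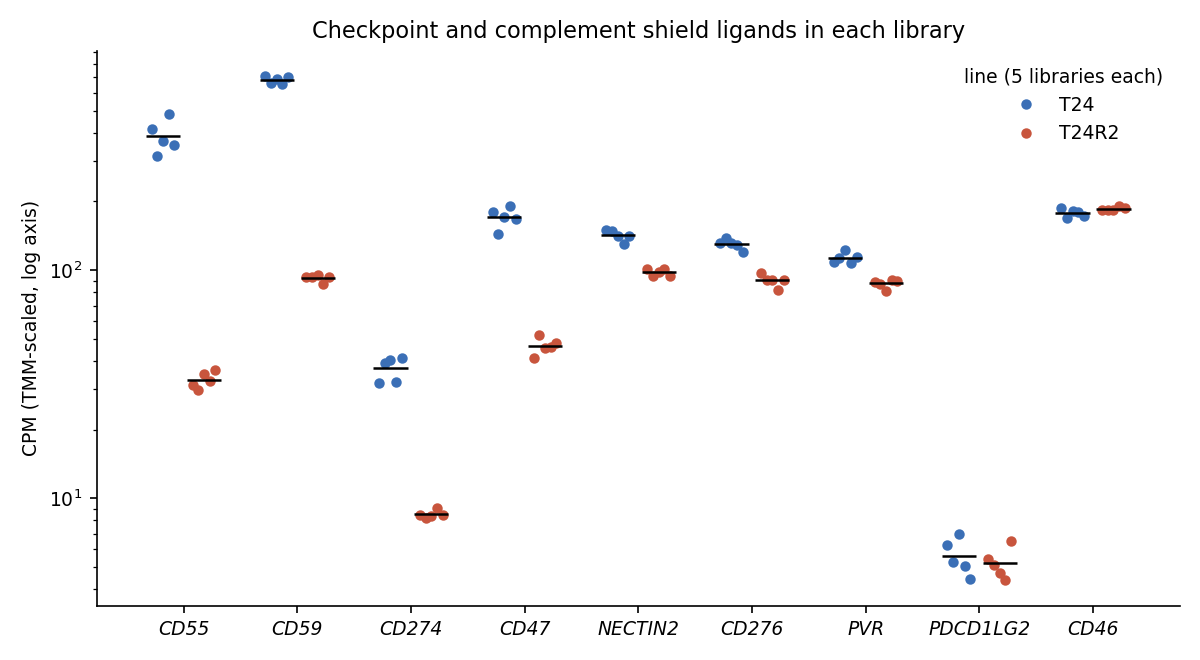
CPM of the 9 genes in each library on a log axis, with 5 points for T24 (blue) and 5 for T24R2 (red) and a bar at each mean. The points of the lines are apart for 7 genes, with the widest gap at CD55 (317 to 484 CPM in T24 against 29.9 to 36.4 in T24R2), and overlap for PDCD1LG2 and CD46.

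The complement regulators parted. CD55 and CD59, the GPI-anchored pair, were the genes of the 9 that fell furthest, whereas CD46 was not called. CD55 (ENSG00000196352, chr1:207321532-207386804, plus strand, hg38) had 415, 317, 370, 484 and 353 CPM in T24 replicates 1 to 5 and 31.4, 29.9, 34.9, 32.6 and 36.4 CPM in T24R2 replicates 1 to 5. Its lowest T24 library was still far above its highest T24R2 library, although T24 replicates 1 and 4 stood above the other 3. The mean fell from 388 ± 64.5 to 33.0 ± 2.62 CPM, 11.7-fold, a log2 fold change of -3.55 (SE 0.08, 95% interval -3.71 to -3.40, edgeR adjusted p = 8.4e-33). Only 3.04% of tested genes had a log2 fold change as low.

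CD59 (ENSG00000085063, chr11:33703010-33736479, minus strand) was the most abundant of the 9 by CPM in T24, but not in T24R2. It had 709.8, 661.5, 688, 655 and 702 CPM in T24 and 93.1, 93.2, 95.7, 87.4 and 93.2 CPM in T24R2. The libraries within each line lay close together and the lines were far apart. The mean went from 683 ± 24.4 to 92.5 ± 3.06 CPM, 7.38-fold lower, a log2 fold change of -2.88 (SE 0.04, edgeR adjusted p = 8.5e-38).

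CD46 (ENSG00000117335, chr1:207752054-207795513, plus strand) lies 365 kb from CD55 in the same cluster of complement regulators. It had 187, 169, 182, 180.3 and 173 CPM in T24 and 184, 183, 184, 190.5 and 187 CPM in T24R2. The ranges overlapped, with means of 178 ± 7.41 and 186 ± 3.06 CPM. The log2 fold change was 0.06 (SE 0.04), with a 95% interval of -0.03 to 0.15 under TMM scaling only (edgeR adjusted p = 0.217, exact permutation p = 0.0794). Without scaling beyond library size it was at 0.22 (edgeR adjusted p = 2.2e-05), outside this interval. With upper-quartile scaling the log2 fold change was 0.13 (edgeR adjusted p = 0.0062), and both values were under the fold change minimum. The ratio of CD55 to CD46 within a library, with counts taken per kilobase of exon, does not depend on the scaling of libraries. It was 3.29 ± 0.473 in T24, where every library had more CD55 than CD46 per length, and 0.269 ± 0.0203 in T24R2, where every library had less (log2 difference -3.60, SE 0.10; exact permutation p = 0.00794, adjusted p = 0.0119 over the 3 gene pairs compared, n = 5 libraries per line). These pairs were chosen after the values were seen, which the adjusted p does not cover.

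To compare levels between genes, counts were also scaled per kilobase of exon (RPKM, on TMM-scaled library sizes). The length was that of all annotated exons of a gene, and the length of the transcripts expressed was not measured. On this scale CD46, CD55 and CD59 together summed to 153 ± 11.7 in T24 and 35.8 ± 0.648 in T24R2. In T24, CD55 made up 44.0% ± 4.02 of the sum, CD59 42.6% ± 3.41 and CD46 13.4% ± 0.664. In T24R2, CD46 made up 59.5% ± 1.11, CD59 24.5% ± 0.860 and CD55 16.0% ± 0.982. The regulator with the least transcript per length in T24 was thus the one with the most in T24R2, in all 5 libraries of each line.

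**Figure D2:**
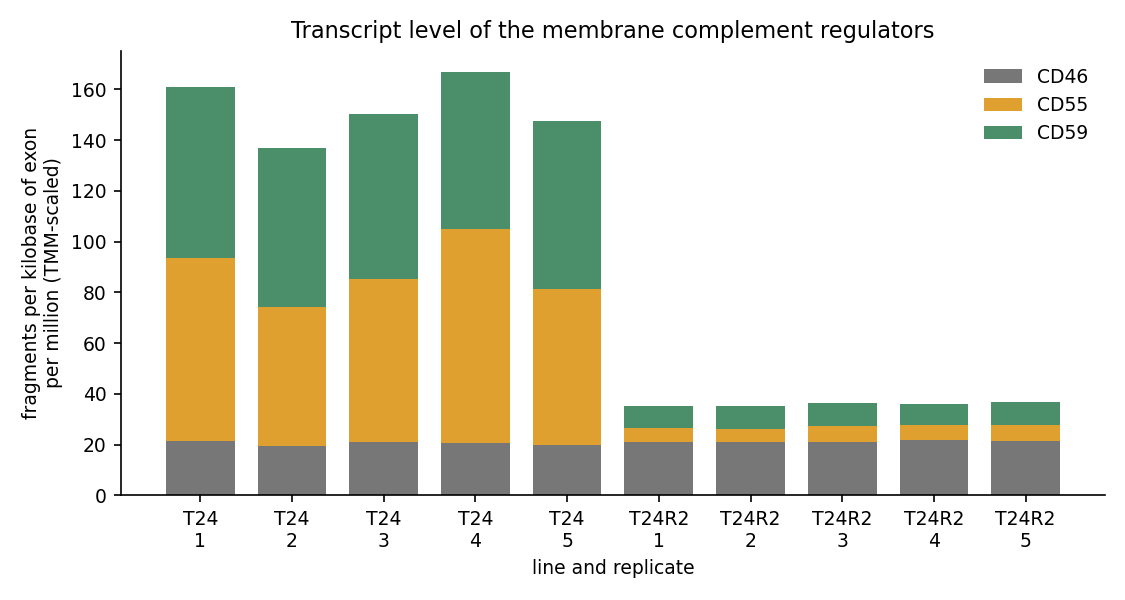
Stacked bars of the RPKM (TMM-scaled, from 0) of CD46, CD55 and CD59 in each of the 10 libraries. Each T24 bar sums to 137 to 167 and each T24R2 bar to 35.1 to 36.7, while the CD46 segment differs little, with means of 20.5 and 21.3.

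The start regions of these genes are shown because CD55 and CD46 lie near each other and moved differently. Sequences are those of RefSeq on GRCh38.p14, which holds 13 windows of 300 bases (250 before and 50 after a start) for 8 of the 9 genes. PDCD1LG2 was not among them. Each window was searched on both strands for 6 motifs, and capitals below mark every match: the interferon-stimulated response element (ISRE, GAAANNGAAA), the STAT site GAS (TTCNNNGAA), AP-1 (TGANTCA), the hypoxia factor core (ACGTG), the cyclic AMP response element (CRE, TGACGTCA) and the GC box bound by SP factors (GGGCGG). A start here is one annotated by RefSeq. The stretch of CD55 runs from 58 to 29 bases before its start (chr1:207321620-207321649, plus strand), inside the gene span given above, which begins further upstream. That of CD46 runs from 120 to 1 bases before (chr1:207751918-207752037, plus strand), and that of CD59 from 150 to 31 bases before (chr11:33736510-33736629, minus strand).
CD55: ccagcccagaccCCGCCCaaagcactcatt
CD46: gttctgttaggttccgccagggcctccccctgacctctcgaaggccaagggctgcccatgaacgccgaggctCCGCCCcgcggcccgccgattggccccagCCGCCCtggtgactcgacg
CD59: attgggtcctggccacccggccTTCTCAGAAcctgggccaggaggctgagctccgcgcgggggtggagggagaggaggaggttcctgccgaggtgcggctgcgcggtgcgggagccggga
The capitals are a GC box on the opposite strand in CD55, a pair of them in CD46 and a GAS match in CD59. The same CD59 window also holds GC boxes around its start, past the end of the stretch shown. GC boxes were in 10 of the 13 windows of these genes and in 45.0% of all 35116 windows, so both CD55, which fell, and CD46, which was not called, carry the letters. GAS matches were in 3 windows of 2 of the genes (CD274 and CD59), against 7.66% of all windows. The CD59 windows with this match overlap and hold the same site. The CD46 windows overlap as well, so these window counts can hold a site more than once. An alternative start of CD59 had 3 AP-1 matches, and AP-1 letters were in 7.71% of all windows. CRE letters were in 1 window, that of NECTIN2, and in 1.85% of all. The PVR window had none of the 6 motifs, which says only that these letters are not in this window. A match is a description of the letters, not evidence of binding.

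CD274 and PDCD1LG2, the PD-1 ligands, lie 39.965 kb apart on chromosome 9 and also parted. CD274 (ENSG00000120217, chr9:5450503-5470566, plus strand) had 32.2, 39.03, 40.6, 32.5 and 41.3 CPM in T24 and 8.44, 8.24, 8.35, 9.09 and 8.46 CPM in T24R2. Every T24R2 library was below every T24 library, with 302 to 382 counts per T24 library and 86 to 102 counts per T24R2 library. The mean fell from 37.1 ± 4.43 to 8.51 ± 0.333 CPM, 4.36-fold, a log2 fold change of -2.12 (SE 0.10, edgeR adjusted p = 1.1e-21). T24 replicates 1 and 4, the highest for CD55, were the lowest for CD274.

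PDCD1LG2 (ENSG00000197646, chr9:5510531-5571282, plus strand) was the least abundant of the 9 by CPM. It had 6.23, 5.26, 6.97, 5.06 and 4.43 CPM in T24 and 5.41, 5.11, 4.70, 4.37 and 6.49 CPM in T24R2. The ranges overlapped almost wholly, and 41 to 66 counts per library left the difference open to between -0.46 and 0.26 on the log2 scale (log2 fold change -0.10, SE 0.18, edgeR adjusted p = 0.616). Without scaling beyond library size its log2 fold change turned to 0.06. The ratio of CD274 to PDCD1LG2 per length was 4.04 ± 0.958 in T24 and 0.986 ± 0.170 in T24R2. Per length the ligands were thus close to level in T24R2, although CD274 had more counts. The log2 difference was -2.02 (SE 0.18, exact permutation p = 0.00794, adjusted p = 0.0119 over the 3 pairs, n = 5). This pair too was chosen after the values were seen, which the adjusted p does not cover. The stretch of the CD274 start region from 225 to 106 bases before the start (chr9:5450317-5450436, plus strand, GRCh38.p14) is shown for its interferon-type letters.
CD274: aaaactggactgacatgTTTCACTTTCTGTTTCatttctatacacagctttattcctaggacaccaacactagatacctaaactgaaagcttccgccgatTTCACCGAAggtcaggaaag
The first run of capitals holds 2 overlapping ISRE matches on the opposite strand and the later run a GAS match. Of the 8 genes with a window, CD274 alone had an ISRE match, and 3.57% of all windows had one.

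CD47 (ENSG00000196776, chr3:108043091-108091862, minus strand) fell about as far as CD274. It had 181, 144, 171, 190.3 and 168 CPM in T24 and 41.3, 51.9, 45.8, 45.9 and 48.1 CPM in T24R2. The lowest T24 library held 144 CPM and the highest T24R2 library 51.9, so the lines were well apart. The mean went from 171 ± 17.3 to 46.6 ± 3.87 CPM, 3.67-fold lower, a log2 fold change of -1.87 (SE 0.06, edgeR adjusted p = 2.0e-26). A stretch from 235 to 206 bases before its RefSeq start (chr3:108091237-108091266, minus strand, GRCh38.p14) lies inside the gene span given above, which begins further upstream. It holds the hypoxia factor core, found also in CD276 and CD59 windows and in 21.4% of all windows.
CD47: gggtgcgacaggACGTGacctggaagcgcg

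The nectin family ligands and B7-H3 changed less. NECTIN2 (ENSG00000130202, chr19:44846175-44889223, plus strand) had 149, 148, 142, 130.1 and 141 CPM in T24 and 102, 94.1, 98.4, 101 and 94.7 CPM in T24R2. Its lines were apart, from 142 ± 7.61 to 97.9 ± 3.47 CPM, with a log2 fold change of -0.54 (SE 0.05, edgeR adjusted p = 1.3e-12). A gene on the opposite strand, ENSG00000267282, shares 3.42% of the NECTIN2 exon bases, and taking its counts off moved the log2 ratio to -0.55.

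CD276 (ENSG00000103855, chr15:73683966-73714514, plus strand) had 132, 138, 132, 129 and 120.4 CPM in T24 and 97.3, 90.4, 91.0, 82.1 and 90.5 CPM in T24R2. Again no library of one line reached the range of the other, and the mean went from 130.2 ± 6.36 to 90.3 ± 5.37 CPM, a log2 fold change of -0.53 (SE 0.05, edgeR adjusted p = 6.5e-12). Both NECTIN2 and CD276 lay just past the fold change minimum. Without scaling they were at -0.37 each, under the minimum, and CD276 was at -0.49 without T24R2 replicate 4, its lowest library.

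PVR (ENSG00000073008, chr19:44643798-44666162, plus strand) had 109, 113, 123, 108 and 114 CPM in T24 and 89.0, 87.4, 81.4, 90.3 and 89.3 CPM in T24R2. It was lower in every T24R2 library, at 87.5 ± 3.57 against 113 ± 6.11 CPM, but its log2 fold change of -0.37 (SE 0.05, edgeR adjusted p = 2.6e-08) was under the minimum and it was not called. PVR and NECTIN2 lie 180.0 kb apart, and their ratio per length within a library moved little, from 0.490 ± 0.0340 to 0.549 ± 0.0281. The log2 difference was 0.16 (SE 0.06, exact permutation p = 0.0159, adjusted p = 0.0159 over the 3 pairs, n = 5). This pair was likewise chosen after the values were seen.

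**Figure D3:**
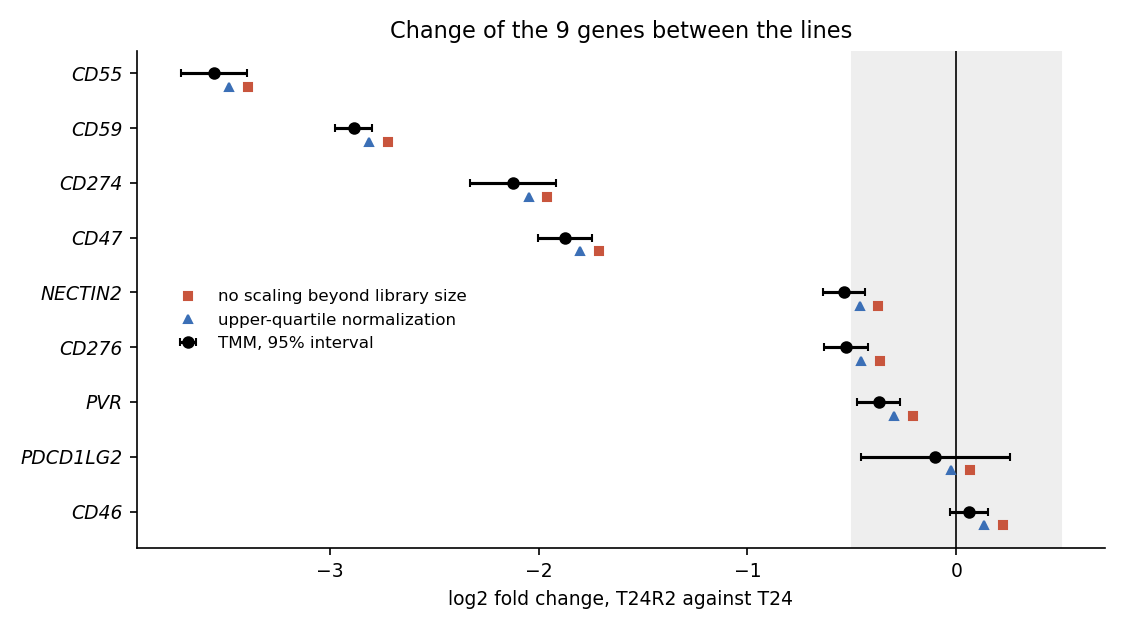
Log2 fold changes of the 9 genes, T24R2 against T24, with 95% intervals of the TMM-scaled fit (black) and the values without scaling (red squares) and with upper-quartile scaling (blue triangles). The grey band marks changes within 0.5. CD55, CD59, CD274 and CD47 lie left of the band under all 3 scalings, whereas NECTIN2 and CD276 enter it under the other 2.

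Scaling shifted every gene together: the median log2 fold change of all tested genes was 0.01 with TMM, 0.09 with upper-quartile scaling and 0.18 without scaling. Without scaling the calls split into 32.2% of tested genes higher and 21.2% lower, and with upper-quartile scaling into 28% higher and 24% lower. Of the 9 genes, 4 were called lower under each of these alternatives.

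The order of the 9 genes by level per length differed between the lines. In T24 it ran CD55 (67.4 ± 11.2 RPKM), CD59 (64.7 ± 2.31), NECTIN2 (37.97 ± 2.03), CD276 (23.8 ± 1.16), CD47 (20.7 ± 2.10), CD46 (20.5 ± 0.851), PVR (18.6 ± 1.00), CD274 (9.03 ± 1.08) and PDCD1LG2 (2.30 ± 0.414). The ranges of CD55 and CD59 overlapped, as did those of each neighbouring pair from CD276 to PVR, so these are not ordered beyond their spread. In T24R2 it ran NECTIN2 (26.2 ± 0.926 RPKM), CD46 (21.3 ± 0.352), CD276 (16.5 ± 0.980), PVR (14.3 ± 0.585), CD59 (8.76 ± 0.290), CD55 (5.74 ± 0.456), CD47 (5.66 ± 0.470), PDCD1LG2 (2.15 ± 0.335) and CD274 (2.07 ± 0.0810). Here CD55 and CD47 overlapped, as did PDCD1LG2 and CD274. The leading gene was CD55 or CD59 in T24 and NECTIN2 in T24R2.

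Genes near the 9 on the same chromosome were compared over the same libraries. For all counts of neighbours below, the share over all tested genes was 24.9% called higher and 26.5% called lower. Around CD274, 0 of the 8 other tested genes within 500 kb were called, with a median log2 fold change of -0.04, and the nearest on its left, PLGRKT, was at 0.29 (edgeR adjusted p = 0.00788), under the fold change minimum. Around CD47, 1 of 5 was called, higher, and the nearest genes BBX and IFT57 were at -0.04 and -0.16. Both members thus fell among neighbours with little change, where 51.4% of all tested genes were called in either direction.

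CD55 and CD59 lay in more changed surroundings. Around CD55, 3 of 8 tested neighbours were called higher and 4 lower. The nearest on its left was C4BPB, the beta chain of the soluble regulator C4b-binding protein, which was at least 10.8-fold lower in T24R2 (3.19 ± 0.419 CPM in T24, at the floor of 3 counts per library in T24R2). The nearest on its right was CD46. Most of the called neighbours of CD55 had low levels, with means of 0.603 to 4.17 CPM in T24. The others were PFKFB2 (log2 fold change 0.54) and YOD1 (-0.93), which moved in opposite directions. Around CD59, 6 of 8 were called lower and 0 higher, with a median of -0.64, among them FBXO3 (log2 fold change -0.63), 4.46 kb away, ENSG00000255202 (-1.92), 6.31 kb away, and KIAA1549L (-2.29). None of these fell as far as CD59 itself.

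Around PVR, 10 of 24 tested neighbours were called higher and 1 lower, and around NECTIN2, 9 of 23 higher and 1 lower, on overlapping windows. ZNF180 and BCL3 flank PVR, at 0.72 and -0.09, and BCAM and TOMM40 flank NECTIN2, at 0.70 and 0.36. Around CD276, 3 of 8 were called higher and 3 lower, with NPTN at 0.44 and LOXL1-AS1 at -0.78 on either side.

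**Figure D4:**
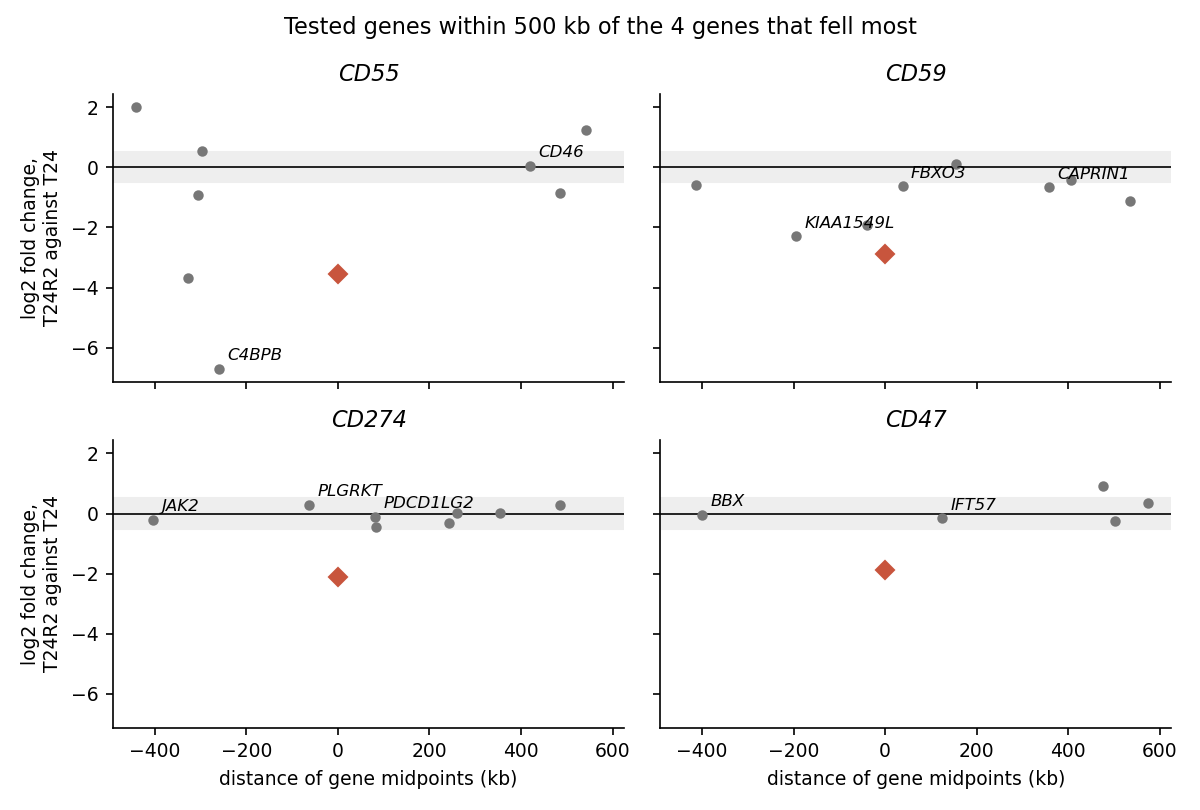
Log2 fold changes, T24R2 against T24, of tested genes (grey) with a gap of at most 500 kb to CD55, CD59, CD274 or CD47 (red diamonds), against the distance between gene midpoints in kb. Points around CD274 stay inside the grey band of 0.5 and those around CD59 lie mostly below it.

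The other genes of these pathways came from lists of known members. Their counts of calls stand beside 24.9% of all tested genes called higher and 26.5% called lower. Among 25 other checkpoint and costimulatory ligands, 16 were tested, of which 3 were called higher and 9 lower (median log2 fold change -0.61, against 0.01 over all tested genes). TNFRSF14 (HVEM), the ligand of BTLA, was at least 37.8-fold lower in T24R2, from 11.1 ± 1.96 CPM to the floor, with 13.3% of its exon bases shared with a gene on the opposite strand. CD70, the ligand of CD27, went from 115 ± 5.34 to 17.2 ± 1.92 CPM (log2 fold change -2.74). CD40, the receptor for CD40 ligand and the most abundant of the list per length, went from 212 ± 9.15 to 102 ± 4.21 CPM (-1.06).

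The list also held genes that rose. CD24, a further signal against phagocytosis through SIGLEC10, rose from 0.349 ± 0.268 to 13.8 ± 1.66 CPM (log2 fold change 5.27), although CD24 has near-identical copies in the genome, so its counts are uncertain. NT5E (CD73), which makes adenosine from AMP, rose from 138 ± 4.79 to 269.5 ± 14.0 CPM (0.97). The fall of CD47 and the rise of CD24 were thus opposite in direction. Their levels are not compared here, as CPM takes no account of gene length.

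Among 7 other nectins and nectin-like proteins, 4 were tested. CADM1, which binds CRTAM on lymphocytes, fell from 29.7 ± 1.57 to 1.71 ± 0.541 CPM (log2 fold change -4.11), and NECTIN1 from 40.5 ± 4.91 to 14.2 ± 1.18 CPM (-1.51). NECTIN3, a partner of NECTIN2 and PVR in cell adhesion, rose from 30.3 ± 3.64 to 58.9 ± 4.81 CPM (0.96). CADM4 was at -0.15 and not called.

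Of 17 other complement regulators 4 were tested. Of these, 2 were called lower and 1 higher. C4BPB and THBD (log2 fold change -0.57) were called lower, and CLU (clusterin, 0.29, the most abundant) was not called. Of 27 complement components 6 were tested, 2 called higher and 2 lower (median 0.23). C3, the component on which CD46 and CD55 act, fell from 192 ± 12.7 to 7.73 ± 1.47 CPM (log2 fold change -4.64), CFD (factor D) was at -1.08 and C5 at 1.19.

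Of 27 tested genes of GPI anchor synthesis, 5 were called higher, 6 lower and 16 neither (median -0.16), beside 24.9% higher and 26.5% lower over all tested genes. PIGM (1.16) rose most, PIGL (-1.06) and PIGU (-1.05) fell most, and GPAA1, the most abundant, was at 0.08. Log2 fold changes in this list ran from -1.06 to 1.16, and those of the GPI-anchored CD55 and CD59 were -3.55 and -2.88. Whether the 2 are linked was not tested.

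Of the 23 regulators of PD-L1, all were tested, with 2 called higher, 6 lower and 15 neither (median -0.21). Of all tested genes 24.9% were called higher and 26.5% lower. The interferon-gamma receptor chain IFNGR2 went from 98.1 ± 4.74 to 28.4 ± 2.78 CPM (log2 fold change -1.79), with 15.6% of its exon bases shared with a gene on the opposite strand. STT3A, a catalytic subunit of the oligosaccharyltransferase that glycosylates PD-L1, was at -1.33 and CDK5 at 0.90. HIF1A, the most abundant, was at -0.42 and not called. The transcription factor IRF1 was called lower, at -0.69, with 22.9% of its exon bases shared with a gene on the opposite strand, and CMTM6, which keeps PD-L1 from degradation, was at -0.30 and not called.

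Of 7 partners of CD47, 6 were tested, and 5 were called lower (median -0.93) and 0 higher. QPCT, a glutaminyl cyclase, was at least 33.9-fold lower in T24R2, from 10.0 ± 0.956 CPM to the floor, whereas QPCTL, the Golgi enzyme that modifies CD47 for SIRPA binding, was at -0.26 and not called. CALR (calreticulin), which as a surface protein promotes phagocytosis, went from 1400.0 ± 29.4 to 621 ± 23.1 CPM (-1.17). Its receptor LRP1 was at -0.90, the CD47 ligand THBS1 at -0.96 and SIRPA at -0.57. Transcripts of CD47, which signals against uptake, and of CALR, which signals towards it, were thus both lower in T24R2.

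Lymphocyte receptors of checkpoint and costimulatory ligands, not all of them partners of the 9 genes, were at or near 0 in these cultures. Of 11 such receptors 0 passed the count filter. Their CPM summed to 0.800 to 1.51 in T24 libraries and to 1.15 to 2.34 in T24R2 libraries, and PDCD1, CTLA4, CD28 and ICOS had no count in any library.

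**Figure D5:**
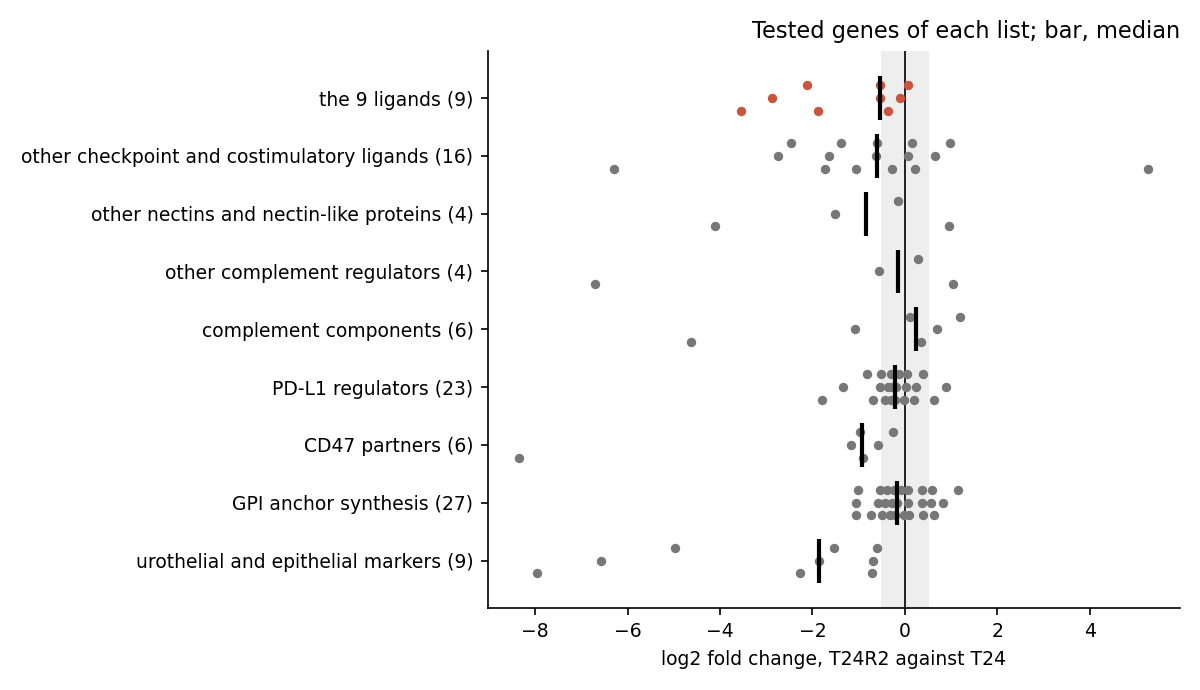
Log2 fold changes, T24R2 against T24, of the tested genes of each list (number in brackets), with the 9 ligands in red, a black bar at the median and a grey band at changes within 0.5. The urothelial and epithelial markers have the lowest median, -1.86, and the complement components the highest, 0.23.

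The genes whose log2(CPM + 1) over the 10 libraries was most like that of CD55, the called gene with the largest change, were COPB2, a coatomer subunit, ASS1, argininosuccinate synthase, and F3, tissue factor (Pearson r = 0.999 for each). All 3 were lower in T24R2, with log2 fold changes of -1.09, -7.18 and -1.64. The libraries form a cluster for each line, and 695 genes had an r over 0.99 with CD55, so the measure does not set these genes apart from many others.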

How the data were processed

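Human T24 and T24R2 cells were profiled by RNA-seq with 5 libraries each. Per the labels and file headers, the authors used STAR 2.7.0 for alignment to hg38, samtools 1.10 to select unique, duplicate-free reads, and featureCounts 2.0.1 with strand option 1 to count fragments on GENCODE 39 genes. The deposited values are raw counts with no normalization. The kit is not described as strand-specific, so reads from opposite-strand partners cannot be told apart. Here edgeR 4.0.16 in R 4.3.3 (filterByExpr, TMM, glmQLFit, glmQLFTest, Benjamini-Hochberg over 16181 genes) compared the lines. Exact two-sided permutation tests of CPM or of log2 ratios of counts per kilobase went through every split of the libraries in Python. SciPy 1.17.1 adjusted the p-values of the 3 gene pairs and gave the t quantiles for the intervals. A fold against a line with at most 3 counts in every library is a bound against 3 counts per library. Such floors and intervals cover counting error and the spread between libraries only. bedtools 2.31.1 found opposite-strand exons, and Python 3.11.15 with matplotlib 3.10.9 drew the plots. The steps were tested on simulated counts. Replicates of a line were not repeats of the same library, with a chi-square over degrees of freedom of 2.01 to 7.09 for their counts.

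The 9 genes and the 10 other gene lists (checkpoint and costimulatory ligands, nectins, complement regulators, complement components, PD-L1 regulators, CD47 partners, GPI anchor synthesis, lymphocyte receptors, immune cell markers, urothelial and epithelial markers) were chosen with earlier results of these data known. All 185 list entries were found in the tables. Named genes were the 9, in each list the 3 called genes with the largest absolute log2 fold change at a mean of at least 1 CPM in either line and the most abundant tested gene per length, any gene of a list of up to 7, the nearest tested genes of each member, opposite-strand partners, and the 3 genes most like CD55. NT5E, IRF1, CMTM6, KIAA1549L, the markers at or near 0 and, as labels in the plot of neighbours, JAK2 and CAPRIN1 were named after their values were seen. A few list genes within this rule are not reported here. Alternatives were no scaling, upper-quartile scaling, DESeq2 1.42.0 with and without normal shrinkage, limma-voom (limma 3.58.1), all genes with counts in place of filterByExpr, genes averaging 100 counts or more, a replicate block, other fold change minimums and leaving out each library.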

Additional observations from a re-analysis of the deposited data

Results flagged for a closer look

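CD274 in T24R2 replicate 4 had 9.09 CPM, above the other 4 libraries of the line at 8.24 to 8.46, and the gap was 0.741 of the range, over Dixon's critical value of 0.71 for 5 samples. It was 1 of 20 groups of libraries checked (the 9 genes and the total count in each line), of which chance would give about 1. All T24 libraries lay above it, at 32.2 to 41.3 CPM.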

How the results depend on the processing

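Of 162 alternative values for the 9 genes, 155 kept both direction and call, including all of those for CD55, CD59, CD274, CD47, CD46 and PVR. Without scaling, PDCD1LG2 turned to 0.064 on the log2 scale, and CD276 and NECTIN2 went under the minimum at -0.37 each. With upper-quartile scaling they were at -0.46 each, and with a mean of at least 100 counts CD276 was at -0.50, under the minimum, while PDCD1LG2 was removed by that filter. Leaving out each library gave -0.56 to -0.49 for CD276, which lost its call without T24R2 replicate 4 at -0.49, and 5 to 6 of the 9 genes called lower. The replicate numbers are shared by the lines but did not pair them (same-number correlations of -0.02 to 0.02, with 1 of 5 replicates matching its own number best), and the fit with a replicate block kept 6 genes lower and 0 higher, with CD55 at -3.54. With a fold change minimum of 1, the other checkpoint ligands had 1 called higher, the nectins 0, the complement components 1, the PD-L1 regulators 0 higher and 2 lower, the CD47 partners 2 lower, the GPI anchor genes 1 higher and 3 lower, and the other complement regulators 1 lower, as they had without scaling and with upper-quartile scaling. With no minimum, the complement regulators had 2 higher, the PD-L1 regulators 4 higher and 14 lower, and the GPI anchor genes 8 higher and 13 lower. Without scaling the GPI anchor genes had 8 higher. The cause of the scaling shifts was not tested. At 41 to 66 counts, the depth limits the PDCD1LG2 comparison to the interval given.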
